A study of Persea americana and Macadamia integrifolia and Mangifera indica with 6 samples.

Results

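MicroRNAs (miRNAs) of mature leaves were compared between avocado, macadamia and mango, using the 3 small RNA libraries made from adult trees out of the 6 libraries of the series. The adult libraries were chosen by their labels alone, and the other 3 libraries, from seedlings, were used only to recognise entries that shared a value in every library. The study followed miRNAs across the change from juvenile to flowering trees in these horticultural crops. The avocado trees were cultivar Hass, 10 years old and grafted on Velvick rootstock, the macadamia trees were HAES741, 10 years old, and the mango trees were Kensington Pride, 5 years old and true seedlings. All were untreated, field-grown trees that had already flowered, with the avocado and macadamia trees at the same research facility and the mango trees at a farm elsewhere. The youngest fully expanded leaves were taken from 15 positions on each of 3 replicate trees by the general plan of the methods, which elsewhere name 6 mature trees for each species, and which trees entered each sequenced library is not given in the sources used here. Each species had 1 adult library, so no difference between species has a replicate check, no test was made, and the intervals below cover counting error only. Species, cultivar, tree age, orchard, propagation and library cannot be told apart in this design. No entry is particular to leaves, so the tissue label was not checked against the data.

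A miRNA is a short RNA, cut from one arm of a hairpin precursor by a Dicer-like enzyme, that guides an Argonaute protein to transcripts with a nearly complementary site. Many plant families of miRNAs are shared by most flowering plants, and most of their targets, as known from Arabidopsis, are transcription factors that set leaf shape, organ boundaries and the timing of flowering. In leaves, miR156 and miR172 are best known for their opposite roles in the age pathway, where miR156 marks juvenile and miR172 adult shoots.

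The deposited values cover 123 entries, 50 named for Arabidopsis and 73 for rice miRNAs, which collapsed to 53 distinct sequences of 20 families once entries of a family with the same value in all libraries were counted once. A sequence is called here by its first entry, with ath- for Arabidopsis and osa- for rice. The sequences of 6 of these families are shown because they served as the forward primers of the study's quantitative PCR in all the species and because they include the 2 families that ranked first and second in every adult library. They are written in DNA letters with bases 2 to 8, the seed, in capitals:
miR159: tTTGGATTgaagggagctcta
miR396: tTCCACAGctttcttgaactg
miR172: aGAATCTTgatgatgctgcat
miR164: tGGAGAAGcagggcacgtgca
miR394: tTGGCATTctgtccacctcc
miR156: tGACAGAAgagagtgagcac
The 6 seeds were all different, so none of these families shared a seed with another, and the primers were 20 or 21 bases long.

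Values are in RPM, the reads of a sequence per 1000000 reads of 20 to 24 nt in its library. The read numbers behind them, recovered from the steps between the values, were 7509125 in avocado, 1717832 in macadamia and 4516161 in mango, so that a single read was worth 0.133, 0.582 and 0.221 RPM. A sequence listed at 0 could therefore have been present at up to 0.400 RPM in avocado, 1.75 RPM in macadamia and 0.664 RPM in mango, the level of 3 reads. The listed miRNAs held 5.59% of the reads in avocado (exact Clopper-Pearson 95% interval 5.58 to 5.61), 5.54% in macadamia (5.51 to 5.58) and 16.6% in mango (16.6 to 16.7). Mango thus carried 2.97 times the listed total of avocado and 3.00 times that of macadamia. Without miR159 the totals were 38385, 20705 and 45338 RPM, and mango stood 1.18 times above avocado and 2.19 times above macadamia.

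Every adult leaf library was led by miR159, which in Arabidopsis represses GAMYB-like transcription factors, and then by miR396, which represses growth-regulating factors. miR159 reached 17563 RPM in avocado, 34716 RPM in macadamia and 120938 RPM in mango. It made up 31.4% of the listed miRNA reads in avocado, 62.6% in macadamia and 72.7% in mango, so its lead was narrowest in avocado and widest in mango. Its level was 6.89-fold (95% interval 6.84 to 6.93) higher in mango than in avocado, 3.48-fold (3.45 to 3.51) higher in mango than in macadamia and 1.98-fold (1.96 to 1.996) higher in macadamia than in avocado. As shares, mango over avocado was no longer past 4-fold (log2 ratio of avocado over mango -1.21, against -2.78 in RPM). The second family, miR396, was close to level, at 12167, 12034 and 18522 RPM in avocado, macadamia and mango.

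The third place was held by miR167 in avocado (11507 RPM) and mango (15327 RPM) and by miR172 in macadamia (2035 RPM). The first 3 families together held 73.7% of the listed reads in avocado, 88.0% in macadamia and 93.1% in mango. To reach 90% of the listed reads took 6 families in avocado, 4 in macadamia and 3 in mango. Avocado was the most even of the 3 libraries, with an inverse Simpson index (the number of equally abundant families that would give the same evenness) of 4.84 against 2.22 in macadamia and 1.80 in mango. Avocado had 8 families at 1000 RPM or more, and macadamia and mango 5 each.

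**Figure D1:**
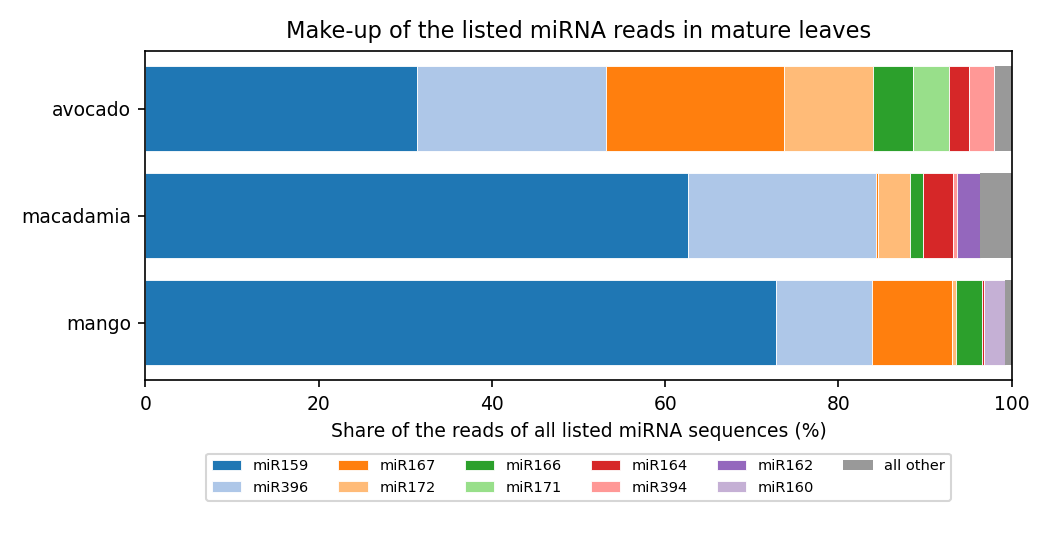
Composition of the listed miRNA reads of each adult leaf library, 1 bar per species, as the percent of listed reads held by the main families, with the minor families and the other arms in grey (1 library per species, no replicates and so no error bars). miR159 takes 31.4% of the avocado bar, 62.6% of the macadamia bar and 72.7% of the mango bar.

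**Figure D2:**
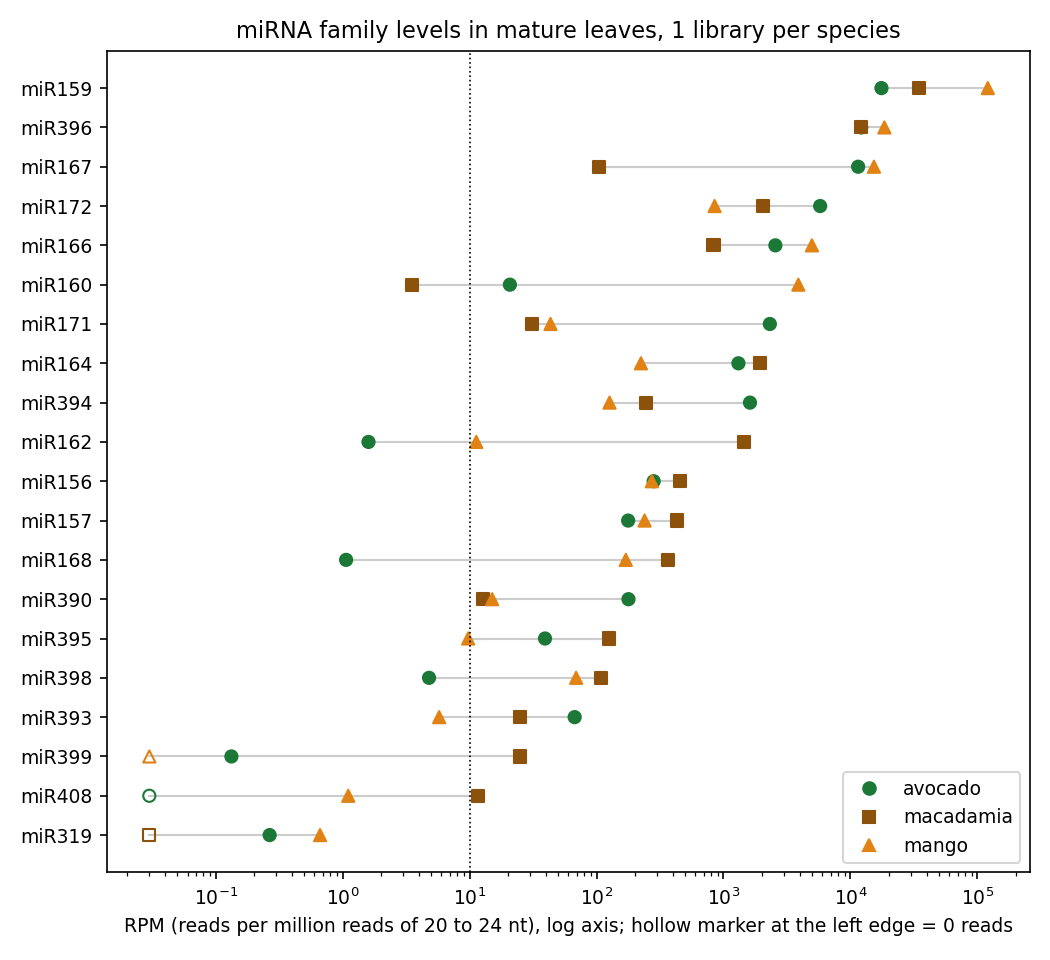
Level of the 20 families in the 3 adult leaf libraries, in RPM on a log axis, 1 point per library, with hollow points at the left edge for 0 reads, a dotted line at 10 RPM and no error bars because there are no replicates. The points of miR396 and miR156 lie close together, and those of miR160 reach from 3.49 RPM in macadamia to 3889 RPM in mango.

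Pairs of species were compared on log2(RPM + 1), over features with at least 10 RPM in 1 or both libraries, and called apart at 4-fold. This scale understates the folds of low features. Between avocado and macadamia, 10 of 19 families were at least 4-fold apart (52.6%), 5 higher in each. Between avocado and mango it was 11 of 17 (64.7%), 6 higher in avocado and 5 in mango, and between macadamia and mango 8 of 19 (42.1%), 5 higher in macadamia and 3 in mango. The 53 sequences gave a similar picture, with 20 of 38 apart between avocado and macadamia (52.6%), 24 of 35 between avocado and mango (68.6%) and 18 of 36 between macadamia and mango (50%). Differences of this size were thus common, and a difference in any single family is to be read against them.

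The split by direction depended on the scale, because the listed total of mango was so much larger. As shares of the listed reads, the families at least 4-fold apart were 5 higher in each species between avocado and macadamia, 7 in avocado and 3 in mango, and 12 in macadamia and 2 in mango. For the sequences, the RPM split was 10 and 10, 14 in avocado and 10 in mango, and 11 in macadamia and 7 in mango. As shares these became 10 and 10, 16 and 6, and 21 and 3. With the median family ratio of each pair set to 0, the families split 7 to 5, 7 to 4 and 4 to 4 and the sequences 13 to 10, 16 to 9 and 9 to 10, in the same order of species. The median log2 ratio over families was -0.55 for avocado over macadamia, -0.41 for avocado over mango and 0.83 for macadamia over mango. Values below are in RPM, and a direction that turned under either other scale is named where it is given.

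**Figure D3:**
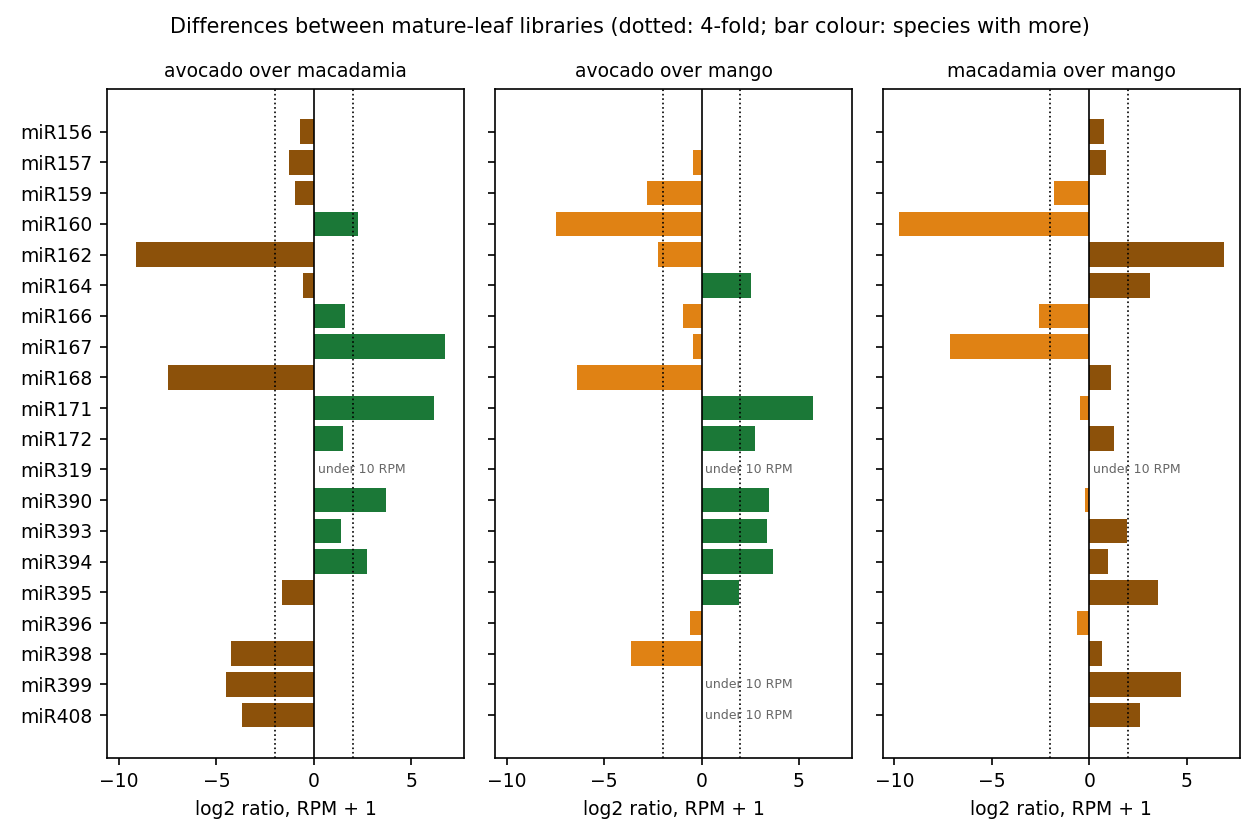
Difference in log2(RPM + 1) of each family between pairs of adult leaf libraries, 1 panel per pair, with dotted lines at 4-fold either way, bars coloured by the species with more and families under 10 RPM in both libraries left without a bar (1 library per species, no error bars). The number of families beyond the lines is 10 of 19 for avocado and macadamia, 11 of 17 for avocado and mango and 8 of 19 for macadamia and mango.

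Among the 19 families that reached 10 RPM in some species, 16 spanned at least 4-fold between their highest and lowest library and 4 spanned more than 100-fold. Only miR396 and miR156 stayed within 2-fold on this scale. By RPM, 5 of the 20 families were highest in avocado (miR171, miR172, miR390, miR393 and miR394), 9 in macadamia (miR156, miR157, miR162, miR164, miR168, miR395, miR398, miR399 and miR408) and 6 in mango (miR159, miR160, miR166, miR167, miR319, at 3 reads, and miR396). As shares of the listed reads, the 9 of macadamia were the same and mango kept only miR159 and miR160, the other 4 being highest in avocado.

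In the age pathway, miR156, which targets SPL transcription factors, stayed within 2-fold across the species in RPM, and miR172, which targets AP2-like floral repressors, did not. miR156 had 282 RPM in avocado, 457 RPM in macadamia and 273 RPM in mango. Avocado and mango could not be separated by counting error (1.03-fold, 95% interval 0.963 to 1.11), and macadamia was 1.62-fold (1.49 to 1.76) above avocado and 1.68-fold (1.53 to 1.83) above mango, the latter turning round when the median family ratio was set to 0. As shares of the listed reads, however, macadamia was past 4-fold above mango for miR156 (log2 ratio 2.32) and for miR157 (2.42). miR157, which is closely related to miR156, had 178, 427 and 239 RPM in avocado, macadamia and mango, and its excess in mango over avocado turned round as shares of the listed reads. Its reads were 38.6%, 48.3% and 46.7% of the miR156 and miR157 reads of the 5p arm.

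miR172 was highest in avocado and lowest in mango, at 5778, 2035 and 852 RPM. Avocado was 2.84-fold (95% interval 2.74 to 2.94) above macadamia and 6.78-fold (6.56 to 7.01) above mango, and macadamia was 2.39-fold above mango, a difference that passed 4-fold as shares of the listed reads (log2 ratio 2.84). It held 10.3% of the listed reads in avocado, 3.67% in macadamia and 0.512% in mango, the same order. Of the 3 families of this pathway, 0 were 4-fold apart between avocado and macadamia, 1 between avocado and mango (miR172) and 0 between macadamia and mango, with median log2 ratios of -0.69, 0.05 and 0.83 beside the -0.55, -0.41 and 0.83 over all families. Over all families, 52.6%, 64.7% and 42.1% were past 4-fold in the same order of pairs. As shares of the listed reads, all 3 families of this pathway passed 4-fold between macadamia and mango, but so did 14 of 19 over all families. Of those 14, 12 were higher in macadamia.

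Of the other regulators of flowering and meristem genes, miR171, which targets GRAS-domain factors that maintain meristems, was an avocado-rich family. It reached 2319 RPM (17416 reads) in avocado, against 30.9 RPM (53 reads) in macadamia and 43.4 RPM (196 reads) in mango. Avocado was 75.2-fold (95% interval 57.4 to 100.4) above macadamia and 53.4-fold (46.4 to 61.8) above mango. The order of macadamia and mango (1.41-fold, 1.03 to 1.94) was close to counting error and turned round as shares of the listed reads. miR319, which is related in sequence to miR159 and targets TCP factors of leaf growth, had 2 entries, both from rice. These were nearly absent, with 2 reads in avocado, 0 in macadamia and 3 in mango, all at or under the floor. A miR319 sequence that differs from both entries has no value here.

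The auxin families together held 21.0% of the listed reads in avocado, 0.265% in macadamia and 11.6% in mango. Nearly all of this was miR167 in avocado, and miR167 with miR160 in mango, and the other members did not follow the same order. miR167 targets the auxin response factors that act in flower and ovule development. It had 11507 RPM (86408 reads) in avocado, 105 RPM (181 reads) in macadamia and 15327 RPM (69221 reads) in mango. Macadamia was thus lower than avocado by 109-fold (95% interval 94.4 to 127) and lower than mango by 145-fold (126 to 169). Avocado and mango differed little (mango 1.33-fold higher in RPM, but avocado higher as a share, 20.6% against 9.22%).

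miR160, which targets another group of auxin response factors, had a single 5p entry, osa-miR160f-5p from rice. By this entry it was high in mango, at 3889 RPM (17562 reads) against 20.8 RPM (156 reads) in avocado and 3.49 RPM (6 reads) in macadamia. So measured, miR160 was the fifth most abundant family in mango and ranked 14 in avocado and 19 in macadamia. Mango was 187-fold (95% interval 160 to 221) above avocado and 1113-fold (511 to 3034) above macadamia. These folds describe that entry alone, because an unlisted 5p variant has no value here. The excess of avocado over macadamia (5.95-fold, 2.67 to 16.5) rested on 6 macadamia reads of the single 5p entry, osa-miR160f-5p, and turned round when the 3p arm was added (20.8 RPM in avocado and 48.3 RPM in macadamia).

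miR390, which starts the production of the small RNAs that restrain auxin response factors, was avocado-rich, at 179, 12.8 and 15.1 RPM in avocado, macadamia and mango. Avocado was 13.9-fold (95% interval 9.17 to 22.3) above macadamia and 11.9-fold (9.29 to 15.4) above mango, and the 22 macadamia and 68 mango reads did not separate these species (mango 1.18-fold higher, 0.718 to 1.997, and lower as a share). miR393, which targets the auxin receptors, followed the order avocado, macadamia, mango at 67.3, 25.0 and 5.76 RPM. Of the 4 auxin families, 3 were at least 4-fold higher in avocado than in macadamia, with a median log2 ratio of 2.99 beside -0.55 over all families. Among these 3, miR160 rested on 6 macadamia reads and turned round when both arms were summed. Between macadamia and mango, 2 of 4 were higher in mango and 0 in macadamia (median -3.69 beside 0.83), and between avocado and mango 2 were higher in avocado and 1 in mango (median 1.46 beside -0.41). Over all families, 52.6% were past 4-fold in either direction for avocado and macadamia, 42.1% for macadamia and mango and 64.7% for avocado and mango.

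Families of leaf and organ development had 127 RPM or more in every species. miR396 was the most level of all, with avocado and macadamia inseparable (1.01-fold, 95% interval 0.996 to 1.03) and mango 1.52-fold above avocado and 1.54-fold above macadamia, an order that turned round as shares of the listed reads (21.7%, 21.7% and 11.1%). miR166, which targets the HD-ZIP III factors that give a leaf its upper side, had 2564, 835 and 4976 RPM in avocado, macadamia and mango. Mango was 5.96-fold above macadamia and 1.94-fold above avocado. As shares of the listed reads the first of these was no longer past 4-fold (log2 ratio of macadamia over mango -0.99, against -2.57 in RPM) and the second turned round.

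miR164, which targets NAC factors that set organ boundaries, was low in mango, with 1312 RPM in avocado, 1927 RPM in macadamia and 224 RPM in mango. The mango level was lower than that of macadamia by 8.61-fold and lower than that of avocado by 5.86-fold. miR394, which targets an F-box gene of leaf curvature and stem cell identity, was high in avocado, with 1618, 245 and 127 RPM. Of these 4 families, 1 was 4-fold higher in avocado than in macadamia and 0 the reverse, 2 were higher in avocado than in mango and 0 the reverse, and 1 was higher in macadamia and 1 in mango between those species. The median log2 ratios were 0.82, 0.97 and 0.16, beside -0.55, -0.41 and 0.83 over all families, of which 52.6%, 64.7% and 42.1% were past 4-fold.

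The listed entries of the families that target the miRNA machinery itself were low in avocado. miR162, which targets Dicer-like 1 and so its own processing enzyme, had 1.60 RPM (12 reads) in avocado, 1457 RPM (2503 reads) in macadamia and 11.3 RPM (51 reads) in mango. Macadamia was 912-fold (95% interval 521 to 1767) above avocado and 129-fold (97.8 to 174) above mango, and miR162 was the fifth family of macadamia. The miR168 family targets Argonaute 1, but its only entry was of the 3p arm, so its 5p arm has no value here. That entry had 1.07 RPM (8 reads) in avocado, 363 RPM (624 reads) in macadamia and 170 RPM (768 reads) in mango. By this 3p entry, avocado was lower than macadamia by 341-fold (172 to 793) and lower than mango by 160-fold (80.6 to 371). Of all families, 52.6% were past 4-fold in either direction between avocado and macadamia and 64.7% between avocado and mango. By their listed entries, miR162 and miR168 were both at least 4-fold lower in avocado than in either other species (median log2 ratios -8.30 and -4.31 beside -0.55 and -0.41). For miR162 between avocado and mango, which rested on 12 and 51 reads, this was lost under other settings, the log2 ratio going from -2.24 to -1.03 as shares of the listed reads, -1.83 with the median family ratio set to 0 and -1.30 with a pseudocount of 5 RPM. As a share of the listed reads they held 0.00476% in avocado, 3.28% in macadamia and 0.109% in mango.

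Families that respond to nutrients were minor everywhere and highest in macadamia. miR395, which targets genes of sulphate uptake and assimilation, had 39.3, 125 and 9.74 RPM in avocado, macadamia and mango. miR399, which targets the phosphate regulator PHO2, had 43 reads in macadamia (25.0 RPM), a single read in avocado and 0 in mango. Against mango this was at least 37.7-fold higher, taking the floor of 3 reads for the mango library, and against the single avocado read it was 188-fold with an interval of 32.0 to 7595.

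The copper families were low in avocado. miR398, which targets copper/zinc superoxide dismutases, had 4.79, 108 and 69.1 RPM in avocado, macadamia and mango, so macadamia was 22.6-fold and mango 14.4-fold above avocado, and macadamia was 1.57-fold above mango, an order that turned round when the median family ratio was set to 0. miR408, which targets transcripts of copper proteins such as plantacyanin, had 0 reads in avocado, 20 in macadamia (11.6 RPM) and 5 in mango (1.11 RPM). Macadamia was at least 29.1-fold above the floor of the avocado library. Both copper families were at least 4-fold higher in macadamia than in avocado, with a median log2 ratio of -3.95 for avocado over macadamia beside -0.55 over all families, of which 52.6% were past 4-fold in either direction. With a pseudocount of 5 RPM miR408 was no longer past it (log2 ratio -1.73, against -3.66). Of 32 families placed in 10 lists by their known targets, 20 had values, and the lists for nitrogen and drought (miR169), disease resistance (miR472, miR482 and miR2118) and monocots (miR444 and miR528) had none.

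Within families, the same sequence usually led in every species. Of the 15 families with more than a single sequence in the leading arm, 12 had the same leading sequence in all adult libraries. The exceptions were miR319, at 2, 0 and 3 reads, miR399, where avocado had a single read and the leading macadamia sequences 22 and 20, and miR167. For miR167, ath-miR167a-5p held 99.8% of the family in mango (15299 RPM, 69091 reads), 40.9% in macadamia (43.1 RPM, 74 reads) and 0.21% in avocado (24.2 RPM, 182 reads). The other sequence, osa-miR167d-5p, held 99.8% in avocado (11483 RPM, 86226 reads), 59.1% in macadamia (62.3 RPM, 107 reads) and 0.19% in mango (28.8 RPM, 130 reads). Avocado and mango therefore reached like family levels through different sequences, while macadamia had little of both.

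Other families kept their leader but shared their reads differently. In miR166, ath-miR166a-3p led with 72.5%, 87.6% and 99.1% in avocado, macadamia and mango, and osa-miR166g-3p took 27.3% (700 RPM) in avocado, 12.1% (101 RPM) in macadamia and 0.19% (9.30 RPM) in mango. In miR396, ath-miR396b-5p held 31.8%, 9.85% and 16.8%, so the family was level in avocado and macadamia while this sequence was 3.26-fold (95% interval 3.12 to 3.41) higher in avocado and ath-miR396a-5p 1.31-fold (1.29 to 1.33) higher in macadamia, the latter a difference smaller than the median family ratio of this pair, so that it turned round with that median set to 0. In miR171, ath-miR171b-3p held 51.5%, 58.5% and 81.1% and osa-miR171b the remainder. The miR171 excess of avocado was found in both, at 1195 RPM against 18.0 and 35.2 RPM for the first and 1125 RPM against 12.8 and 8.19 RPM for the second.

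miR398 and miR393 differed in the same manner at lower depth. ath-miR398a-3p was at 0 in avocado, with 24 reads in macadamia and 75 in mango (16.6 RPM), and osa-miR398b held all 36 miR398 reads of avocado, 87.1% of those of macadamia and 76.0% of those of mango. ath-miR393a-5p had 14.4 RPM in avocado, 9.31 RPM in macadamia and 0.443 RPM in mango, where osa-miR393a held 92.3% of the family against 78.6% in avocado and 62.8% in macadamia.

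**Figure D4:**
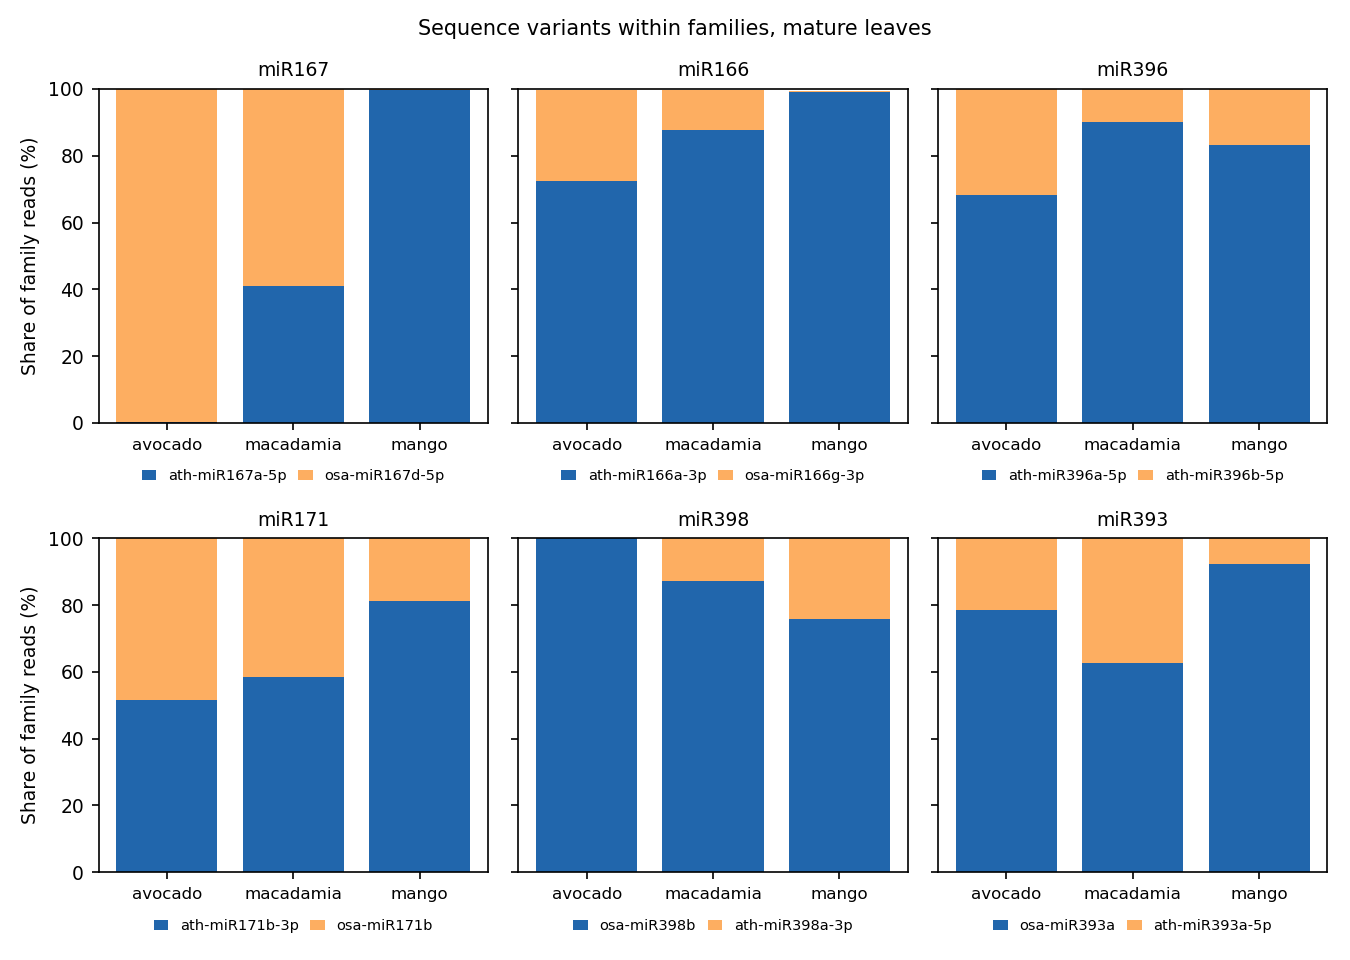
Share of each family's reads held by its main sequences in the 3 adult leaf libraries, in percent, 1 panel per family and 1 bar per library (no replicates, no error bars). The miR167 bar is almost wholly osa-miR167d-5p in avocado (99.8%) and ath-miR167a-5p in mango (99.8%), and mixed in macadamia.

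In miR159 the leading sequence, ath-miR159a, was nearly the whole family in every species (98.9%, 99.5% and 99.1%), at 17362, 34527 and 119798 RPM. The minor sequences went different ways. ath-miR159b-3p was ordered as the family was, at 14.4, 133 and 958 RPM in avocado, macadamia and mango. ath-miR159c and osa-miR159d were sequences of avocado, with 58.1 RPM (436 reads) and 105 RPM (790 reads). Mango had 4 and 3 reads of them and macadamia 0, although the family itself was lowest in avocado. Together they held 0.930% of the miR159 reads of avocado, 0.00128% of those of mango and 0 of the 59636 reads in macadamia.

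Some smaller sequences were also uneven. osa-miR164d had 40.9 RPM in avocado, 27.4 RPM in macadamia and 0.221 RPM, a single read, in mango. ath-miR172e-3p had 17.6 RPM in avocado and 13.3 RPM in mango but a single read in macadamia, while ath-miR172a, which made up nearly all of that family, followed the family's order. ath-miR157d kept a small share of miR157 throughout, at 6.98%, 3.00% and 10.7%.

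The share of listed reads from each arm of the hairpin also varied. Each arm of miR160 has a single entry, from rice for 5p and from Arabidopsis for 3p, so an unlisted variant and a difference between arms cannot be told apart. For miR160, the 3p sequence ath-miR160a-3p had 0 reads in avocado, 77 reads in macadamia (44.8 RPM) and 3 reads in mango (0.664 RPM). It made up 92.8% (95% interval 84.9 to 97.3) of the 83 miR160 reads of macadamia and 0.017% of those of mango. For miR166, the 5p arm held 10.5% (10.1 to 10.9) of the reads of both arms in avocado, 30.8% (28.9 to 32.9) in macadamia and 10.3% in mango, with 302, 373 and 574 RPM. The 3p arm of miR156 was 5.11%, 3.09% and 0.404% of both arms, and that of miR396 was 0.254%, 0.347% and 0.043%, so mango had the smallest share of both.

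Few listed families were missing from a mature leaf. Of the 20 families, 17 had at least 1 read in every species and 11 had 10 RPM or more in every species. None of the listed families lacked reads in all 3 libraries, and how entries came into the list is not given in the sources used here. Broad presence therefore cannot be told apart from the choice of entries. Each library had 1 family at 0, miR408 in avocado, miR319 in macadamia and miR399 in mango. Those with 10 RPM or more numbered 14 in avocado, 18 in macadamia and 15 in mango, although macadamia was the least deeply sequenced. Both families that passed 10 RPM in a single species, miR399 and miR408, did so in macadamia.

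Of the 53 sequences, the avocado library held reads of 43, the macadamia library of 45 and the mango library of 44, and 35 were in all of them. At 10 RPM or more, 16 were present in all 3 species and 14 in none. ath-miR159c, osa-miR159d and ath-miR393a-5p passed that level in avocado alone, ath-miR160a-3p, osa-miR399i, osa-miR399j and ath-miR408-3p in macadamia alone, and osa-miR166m in mango alone. Of the sequences at 0 in a library and at 10 RPM or more in another, ath-miR398a-3p, ath-miR160a-3p and ath-miR408-3p were at 0 in avocado, ath-miR159c and osa-miR159d in macadamia, and osa-miR399j in mango. osa-miR399i had 22 reads (12.8 RPM) in macadamia and 0 in both other libraries.

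A few sequences were very low in 1 library beside a very high level in another. In 9 such cases, covering 5 sequences that were at least 100-fold apart with at least 1000 reads in the higher library, the lower library held 0.0342% to 2.04% of the reads of the higher one. They included osa-miR160f-5p in macadamia (0.0342%) and avocado (0.888%) beside mango, and both miR167 sequences. Whether reads were carried over between libraries was not tested.

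As a description of overall likeness, log2(RPM + 1) of the 20 families correlated with a Pearson r of 0.60 between avocado and macadamia, 0.77 between avocado and mango and 0.64 between macadamia and mango (Spearman rho 0.61, 0.79 and 0.63). Over the 53 sequences r was 0.70, 0.68 and 0.78, so the closest pair was avocado and mango by family and macadamia and mango by sequence. The points are families or sequences of a single library pair and not replicates, and sequences of a family are related.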

How the data were processed

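Small RNA libraries were made from 1 ug of total leaf RNA with 17 PCR cycles and read as 76-cycle single reads. Per the methods, the authors trimmed adapters (Trim Galore) and retained reads shorter than 30 nt, filtered out ribosomal RNA (BBduk) and used SCRAM to count the remainder on the mature miRNAs that miRBase holds for Arabidopsis and rice, with versions not given in the sources used here. Deposited values are RPM, scaled by the authors to reads of 20 to 24 nt and given to 3 decimals. A tree miRNA that differs from both reference plants has no value, and whether reads of a related sequence were counted there was not tested. RPM is a share of a library, so other small RNAs move all values.

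Entries of a family with identical RPM in all libraries were counted once. A family was the sum of its leading arm (the larger total over adult libraries) and of entries naming no arm. Depth was the smallest read number giving whole reads for every value within rounding, and whole multiples of it would do so as well. The search and the interval code were tested on simulated data. Intervals are exact (Clopper-Pearson) at 95% and, since PCR copies are not independent molecules, cover counting error only. Ratios used log2(RPM + 1), a filter of 10 RPM in 1 or both libraries and a 4-fold threshold. Plain folds used RPM, with a floor of 3 reads per library against 0. Every family is named. Sequences were to be named if among the 5 most abundant or leading a family with more than a single sequence. Those at 0 in some species and at 10 RPM in another were named as well. Left unnamed above were ath-miR162b-3p and ath-miR164a, both among the 5 most abundant in macadamia and leading their families. The leading sequences ath-miR156a-5p, ath-miR157a-5p, ath-miR395a and osa-miR319a-3p were also left unnamed. Other sequences, the arms and the very low cases were chosen after seeing their values. Families and lists were chosen with earlier results of these data known. Primer sequences came from the study's primer list. Python 3.11.15, numpy 2.4.6, pandas 2.3.3, scipy 1.17.1 and matplotlib 3.10.9 were used. Alternatives were other scalings, pseudocounts of 0.1 and 5 RPM, a filter of 50 RPM or none, and folds of 2 and 10. Families were also taken as both arms, or as the most abundant sequence of either arm alone, chosen in each library. Seedling values and the study's quantitative PCR were not analysed here.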

Additional observations from a re-analysis of the deposited data

How the results depend on the processing

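Depth limited low values most, above all in macadamia, where a single read was worth 0.582 RPM, and ratios that rest on fewer than 10 reads have wide intervals. At a fold of 10, the families apart fell to 8 of 19 between avocado and macadamia, 7 of 17 between avocado and mango and 5 of 19 between macadamia and mango. The sequences apart fell to 15, 16 and 9 in the same order of pairs. As shares of the listed reads, the families at least 4-fold apart were 10 of 19, 10 of 16 and 14 of 19 in that order. Which pair had the most families apart thus depended on the setting. With a filter of 50 RPM, 12 sequences were apart between avocado and macadamia and 9 between macadamia and mango. Counting families under 10 RPM in place of 0 reads gave 6, 2 and 5 in avocado, macadamia and mango, and sequences 24, 21 and 28. Under the floor of 3 reads there were 3, 1 and 1 families and 14, 15 and 14 sequences in avocado, macadamia and mango. The leading miR159 sequence alone held 31.0%, 62.3% and 72.0% of the listed reads. Of 29 family ratios past 4-fold among 55, 28 remained with both arms and 28 with the most abundant sequence of either arm alone. With the median ratio set to 0, 27 remained, and as shares of the listed reads 26. With a pseudocount of 0.1 RPM 29 remained past 4-fold, and with 5 RPM 25. As shares, miR159 and miR162 between avocado and mango and miR166 between macadamia and mango were no longer past it. With the median set to 0 this held for miR162 between avocado and mango and miR408 between macadamia and mango, and with a pseudocount of 5 RPM for these ratios and for miR160 and miR408 between avocado and macadamia. The log2 ratio of miR160 in avocado over macadamia turned from 2.28 to -1.18 with both arms, because 77 of its 83 macadamia reads were 3p. It turned to -1.07 with the most abundant sequence of either arm alone, which was 5p in avocado and 3p in macadamia. No paired analysis was possible because each species had 1 adult library, and for the same reason no library could be left out.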
